A study of Mus musculus with 6 samples.

Results

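The membrane sialomucins most closely comparable with endomucin were followed in retinas that lack it. The genes were taken from the deposited table by symbol: Podxl, Podxl2 and Cd34 of the CD34 family, Cd164 and its relative Cd164l2, and the epithelial mucin Muc1. All 6 were found, each under 1 gene ID, among 28627 genes in the table. Poly-A RNA from whole retina was sequenced in 3 Emcn-/- and 3 Emcn+/+ littermate samples, all taken on postnatal day 15 from pups put through oxygen-induced retinopathy. Both genotypes went through the model, so no retina raised in room air served as a baseline. The labels do not give the Emcn allele, the strain or the sex of the pups, and they do not say whether a sample was 1 animal or a pool, so each p-value reflects sample-to-sample spread that may be partly technical.

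Sialomucins are rod-like surface glycoproteins whose outer domain carries dense O-linked sugar chains capped with negatively charged sialic acid. On the vessel wall they form part of the glycocalyx, where the charge keeps cells apart, while particular sugar forms of the same proteins can serve as ligands of leukocyte adhesion receptors. Endomucin is carried mainly by the endothelium of capillaries and veins. CD34 and podocalyxin, the product of Podxl, also coat endothelial cells. The comparison addresses whether transcripts of such relatives were at another level where endomucin was lost. In the model, high oxygen first strips the young retina of capillaries, and the return to room air then leaves it hypoxic and drives new vessel growth.

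The libraries held 14865868 to 17087621 reads assigned to genes. Values are given as normalised reads, which are read counts divided by 1 factor per library, so that 1 read was worth 0.924 to 1.09 normalised reads. Gnat1, which encodes the alpha subunit of rod transducin, had 89111 to 95716 normalised reads in Emcn-/- libraries and 82806 to 89924 in Emcn+/+ libraries, so a marker of the labelled tissue was abundant. In whole tissue, fewer cells of a type and less RNA per cell cannot be told apart. Some libraries stood apart. Emcn+/+ replicate 3 had 17641 reads of Xist, the RNA that silences an X chromosome in females, where the other libraries had 1 to 5. Its count of the Y-linked Ddx3y was 0, where the others had 1143 to 1393. Emcn-/- replicate 2 had the lowest mean of 15 endothelial genes on the log2 scale, 7.69 where the other libraries had 8.25 to 8.50. Estimates are given with and without these libraries.

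Emcn (ENSMUSG00000054690, GRCm38 chromosome 3, 137341067 to 137432185, plus strand) followed the labels. Its values were 1.95, 1.04 and 4.62 normalised reads in the Emcn-/- libraries, against 93.3, 80.6 and 100.5 in the Emcn+/+ libraries. The log2 fold change was -4.83 ± 0.40 (SE), with a limma adjusted p of 0.0143. Leaving out 1 library left the estimate between -5.23 and -4.50, but the limma call was lost in 3 of these fits. Its adjusted p was 0.160 without Emcn-/- replicate 1, 0.0919 without Emcn+/+ replicate 1 and 0.209 without Emcn+/+ replicate 2. Run with no intensity trend, limma made no call of Emcn either (adjusted p = 0.149). By contrast edgeR called the gene (adjusted p = 0.00508). DESeq2 gave it an unadjusted p of 1.8e-18 but no adjusted p.

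None of the relatives tested passed at an adjusted p under 0.05. Podxl, Podxl2, Cd34 and Cd164 had enough reads to be tested, and 0 of these 4 were called by limma, by edgeR or by DESeq2. Among all 16681 genes tested, limma called 0.00599% (Emcn alone), edgeR called 0.00599% and DESeq2 called 0.492%. At an unadjusted p under 0.05 limma counted 1 of the 4, Podxl2, beside 8.14% of all genes. At that threshold edgeR counted 0 of the 4 beside 8.34% of all genes and DESeq2 counted 0 beside 5.75%. Cd164l2 and Muc1 did not reach the minimum for testing, and with no filter on low values their limma adjusted p was 0.817 and 0.831.

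**Figure D1:**
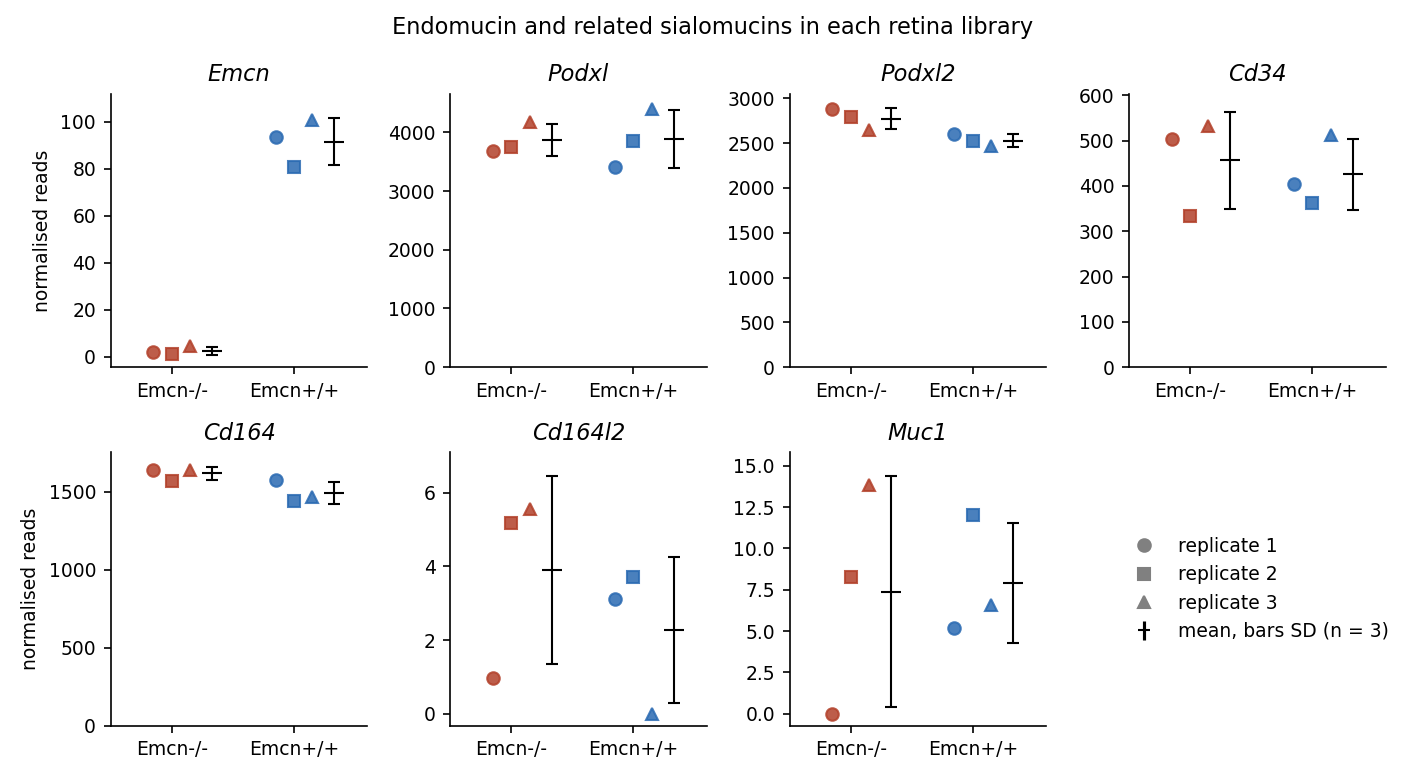
Normalised reads of Emcn and the 6 related sialomucins in each library (y axes, 1 scale per gene), Emcn-/- on the left and Emcn+/+ on the right of each panel, with the mean and SD of 3 libraries. Emcn separates the genotypes, with at most 4.62 in Emcn-/- against at least 80.6 in Emcn+/+, while Podxl, Cd34, Cd164, Cd164l2 and Muc1 overlap and Podxl2 lies slightly higher in Emcn-/-.

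The level of a transcript per kilobase of exon allows genes to be set beside each other. With the union of all annotated exons as length, Podxl had the highest level, 705 ± 49.5 normalised reads per kb in Emcn-/- and 708 ± 89.9 in Emcn+/+ (SD, n = 3 each). Podxl2 followed at 482 ± 19.9 in Emcn-/- and 440.0 ± 11.8 in Emcn+/+ on the same per kb scale. Cd164 came next at 363 ± 9.49 per kb in Emcn-/- and 335 ± 16.1 in Emcn+/+. Over all 6 libraries the per kb ranges of these 3 genes did not overlap, being 620 to 800 for Podxl, 429 to 501 for Podxl2 and 323 to 369 for Cd164. Cd34 was lower, at 62.6 ± 14.7 per kb in Emcn-/- and 58.4 ± 10.8 in Emcn+/+. Emcn stood below Cd34 even in Emcn+/+, at 16.9 ± 1.86 per kb. Muc1 (0 to 5.91 per kb) and Cd164l2 (0 to 3.04 per kb) were lowest, and their ranges overlapped. The order depended on the length used: with the longest annotated transcript, 2195 bp for Podxl2 in place of 5749 bp of merged exons, Podxl2 stood first at 1263 ± 52.2 per kb in Emcn-/- and 1152 ± 31.0 in Emcn+/+, above Podxl at 719 ± 50.5 and 722 ± 91.8.

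Emcn was a small part of the summed transcripts of these genes in whole retina, and its share within vessel cells was not measured. Of the per kb sum of Emcn and the 6 related genes, Emcn made up 0.0285% ± 0.0201 in Emcn-/- and 1.08% ± 0.0971 in Emcn+/+ (SD, n = 3 each). The 6 related genes summed to 1609, 1572 and 1673 normalised reads per kb in the Emcn-/- libraries, against 1485, 1522 and 1631 in the Emcn+/+ libraries, and these ranges overlapped. The spread of that sum between libraries, an SD of 51.2 in Emcn-/- and 75.7 in Emcn+/+, exceeded the whole Emcn level of the Emcn+/+ retinas.

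**Figure D2:**
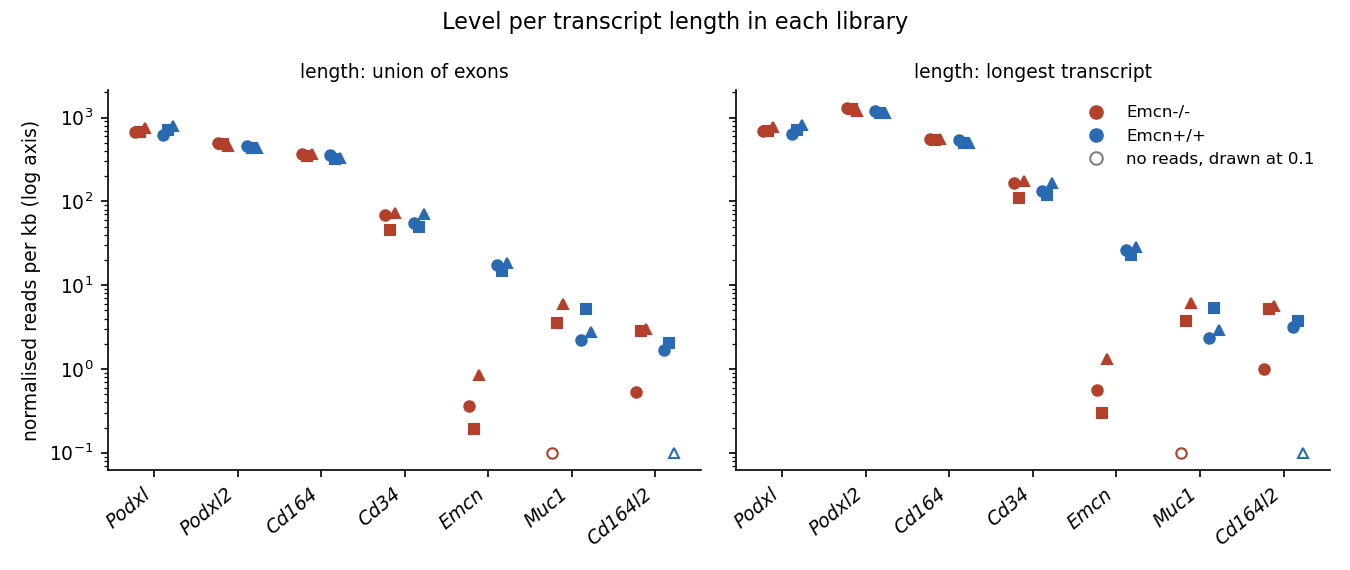
Normalised reads per kb (log axis) of Emcn and the 6 related sialomucins in each library, Emcn-/- left of Emcn+/+, with the union of exons (left panel) or the longest transcript (right panel) as length; symbols mark replicates 1 to 3 as circle, square and triangle, and open symbols stand for 0 reads. Podxl, Podxl2 and Cd164 lie more than an order of magnitude above Emcn in the Emcn+/+ libraries under both lengths.

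Cd34 (ENSMUSG00000016494, GRCm38 chromosome 1, 194938819 to 194961279, plus strand) encodes a marker of blood progenitors and of capillary endothelium that can present sugars to leukocytes. Its values were 504, 334 and 531 normalised reads in the Emcn-/- libraries, against 403, 361 and 513 in the Emcn+/+ libraries. The genotypes overlapped fully, with Emcn-/- replicate 2 lowest of all and Emcn-/- replicate 3 highest. The log2 fold change was 0.09 ± 0.19 (SE, limma adjusted p = 0.921), and the 95% interval ran from -0.34 to 0.51, a change of -20.9% to 42.5%. Without Emcn-/- replicate 2 the estimate was 0.30 and without Emcn+/+ replicate 3 it was 0.23, neither called (limma adjusted p = 0.848 and 0.543), where 0.855% of all genes were called without Emcn+/+ replicate 3. Without Emcn-/- replicate 3 it was -0.04 (adjusted p = 0.983).

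The low Cd34 value of Emcn-/- replicate 2 came with low values of most, but not all, of the 15 endothelial genes. Pecam1, the endothelial junction protein also known as CD31, had 514, 338 and 541 normalised reads in the Emcn-/- libraries, against 396, 399 and 579 in the Emcn+/+ libraries, and Cdh5, the endothelial cadherin gene, was at 219 in Emcn-/- replicate 2 and 408 to 500.2 elsewhere. Of 15 endothelial genes, all tested, 4 had positive and 11 negative estimates, with a median log2 fold change of -0.09 against 0.01 for all genes tested, and 0 were called. Without Emcn-/- replicate 2 that median turned to 0.13, and with each other library left out it lay between -0.21 and -0.10. Taken relative to the mean of these 15 genes on the log2 scale, Cd34 stood at 0.60, 0.69 and 0.55 in the Emcn-/- libraries, against 0.41, 0.18 and 0.56 in the Emcn+/+ libraries. The Emcn-/- values were more alike on this relative scale, and Emcn+/+ replicate 3 still lay among them. The relative difference averaged 0.23, and it stayed between 0.13 and 0.32 when 1 library was left out. The other relatives had positive differences on this scale too, 0.14 for Podxl, 0.28 for Podxl2 and 0.26 for Cd164. The endothelial mean itself was 8.19 ± 0.44 in Emcn-/- and 8.34 ± 0.10 in Emcn+/+ (SD, n = 3 each). Its difference of -0.14 enters each of these values, beside the log2 fold changes of Podxl2 (0.13) and Cd164 (0.12) themselves. Without Emcn-/- replicate 2 the relative differences were -0.08 for Podxl, 0.02 for Podxl2 and 0.03 for Cd164, and 0.19 for Cd34.

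Podxl (ENSMUSG00000025608, GRCm38 chromosome 6, 31519488 to 31563981, minus strand) encodes podocalyxin, the anti-adhesive sialomucin known from kidney podocytes and found on vessel endothelium. Its values were 3679, 3747 and 4179 normalised reads in the Emcn-/- libraries, against 3403, 3859 and 4389 in the Emcn+/+ libraries. The lowest and the highest library were both Emcn+/+, so the Emcn-/- range lay inside the Emcn+/+ range. The 95% interval of the log2 fold change, -0.21 to 0.21, allows a change of -13.6% to 15.6% in Emcn-/- (limma adjusted p = 0.999). Podxl did not share the dip of most endothelial genes in Emcn-/- replicate 2, where it stood at 3747.

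The Podxl and Cd34 values also split by the number series of the sample titles, whose meaning the labels do not give. The 2 libraries numbered in the 180s, 1 of each genotype, had 4179 and 4389 normalised reads of Podxl, above the 3403 to 3859 of the 4 libraries in the 140s. For Cd34 the 180s libraries had 513 and 531, narrowly above the 334 to 504 of the 140s. The share of all genes that split in this way was not counted, so the split cannot be read as particular to these genes. Within the 140s libraries the Emcn-/- minus Emcn+/+ difference was 0.03 for Podxl and 0.10 for Cd34 on the log2 scale, and within the 180s, with 1 library of each genotype, it was -0.07 and 0.05.

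Podxl2 (ENSMUSG00000033152, GRCm38 chromosome 6, 88842558 to 88875044, minus strand) encodes endoglycan, a CD34 family member that is known from neural as well as vascular tissue. Its values were 2879, 2788 and 2651 normalised reads in the Emcn-/- libraries, against 2602, 2520 and 2467 in the Emcn+/+ libraries. It was the 1 tested relative whose genotypes did not overlap, higher in 3 of 3 Emcn-/- libraries, a pattern seen upward in 7.48% of all genes tested. The log2 fold change was 0.13 ± 0.05 (SE; 95% interval 0.01 to 0.25), a level 9.58% higher, with a limma adjusted p of 0.577. An exact two-sided permutation test gave p = 0.1, the smallest that 3 against 3 libraries allow. The adjusted p ranged from 0.296 to 0.940 over the alternatives, and the estimate from 0.10 to 0.16. Within the 140s libraries the difference was 0.15 and within the 180s 0.10.

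The same direction appeared in Cd164 (ENSMUSG00000019818, GRCm38 chromosome 10, 41519414 to 41531048, plus strand), which encodes endolyn, a sialomucin of endosomes, lysosomes and the cell surface that acts on CXCR4 signalling in progenitor cells. Its values were 1640, 1567 and 1641 normalised reads in the Emcn-/- libraries, against 1572, 1438 and 1462 in the Emcn+/+ libraries. Emcn+/+ replicate 1 lay just above the lowest Emcn-/- library, so the genotypes overlapped by that pair. The log2 fold change of Cd164 was 0.12 ± 0.06 (SE; 95% interval -0.01 to 0.25; limma adjusted p = 0.641), at most an 18.6% higher level by that interval. Without 1 library it lay between 0.09 and 0.16.

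Rod genes had estimates of a like size. All 8 rod genes examined had positive estimates, beside 8672 of all 16681 genes, with a median log2 fold change of 0.10 and 0 called. Their summed level was 767850 to 819720 normalised reads in Emcn-/- libraries and 700030 to 741200 in Emcn+/+ libraries. Averaged over these genes as log2 values, each minus its own mean over the 6 libraries, the genotypes overlapped. That average was -0.011 in Emcn-/- replicate 3 and 0.003 in Emcn+/+ replicate 3. The part of the rod genes in the Podxl2 and Cd164 values was not tested. Nor was that of the pigment epithelium genes described below, 9 of 9 with positive estimates and a median of 0.92. Ratios between the sialomucins within a library, which no scaling affects, overlapped between the genotypes. With 3 against 3 libraries their permutation p could not fall under 0.1, so that test could not decide whether they differ. Podxl2 over Podxl was 0.783, 0.744 and 0.634 in Emcn-/- libraries, against 0.765, 0.653 and 0.562 in Emcn+/+ libraries (exact permutation p = 0.6, two-sided; adjusted p = 0.9 over 5 ratios). Podxl2 over Cd164 was nearly constant, 1.62 to 1.78 in Emcn-/- libraries and 1.66 to 1.75 in Emcn+/+ libraries (exact permutation p = 0.8, two-sided, adjusted 0.9). A shift shared by Podxl2 and Cd164 cannot show in this ratio. Podxl2 over Podxl also carries the split of Podxl by title series. In the 180s libraries, replicate 3 of each genotype, it was 0.634 in Emcn-/- and 0.562 in Emcn+/+, while the genotypes overlapped within the 140s.

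**Figure D3:**
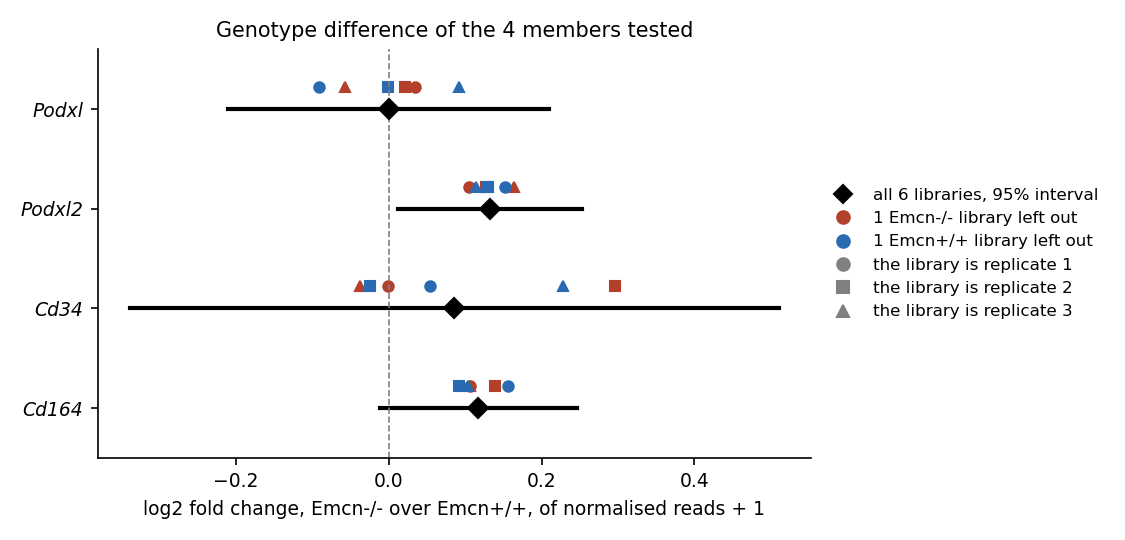
Log2 fold change of Emcn-/- over Emcn+/+ (x axis, on normalised reads + 1) for the 4 tested sialomucins. Black diamonds with lines give the limma estimate and its 95% interval from all libraries, and small symbols give the estimate with 1 library left out. The Podxl2 estimates stay between 0.10 and 0.16, those of Podxl lie on both sides of 0, and those of Cd34 spread from -0.04 to 0.30.

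**Figure D4:**
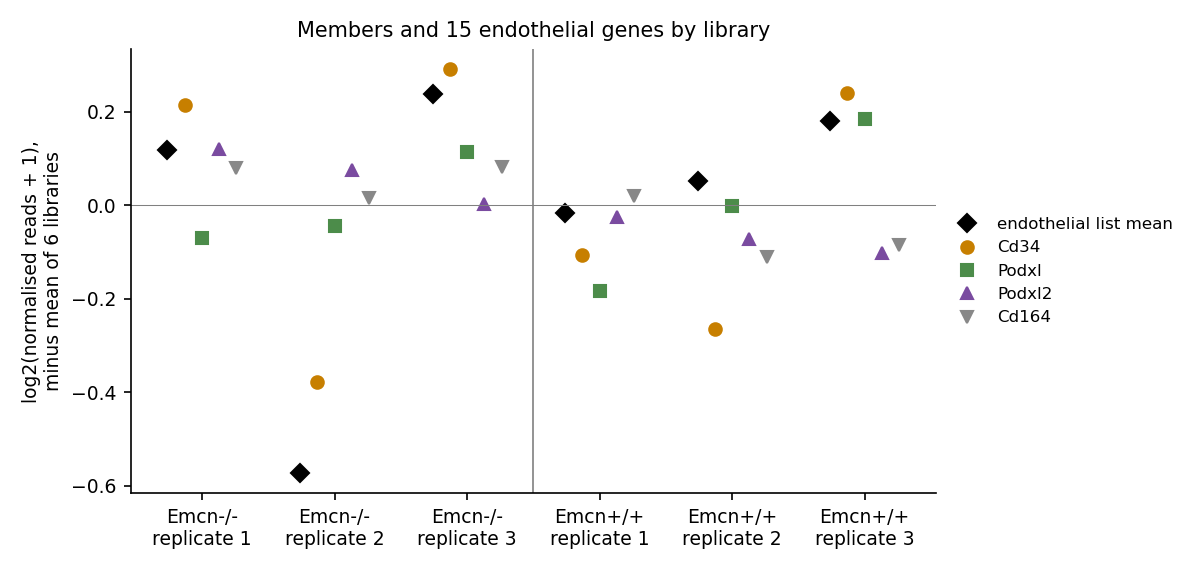
Log2(normalised reads + 1) of 4 sialomucins and the mean of 15 endothelial genes, each minus its own mean over the 6 libraries (y axis), by library (x axis, Emcn-/- on the left). Cd34 and the endothelial mean are both lowest in Emcn-/- replicate 2 and highest in Emcn-/- replicate 3, while Podxl2 and Cd164 stay within 0.2 of their means in all libraries.

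Muc1 and Cd164l2 were close to the limit of detection. Muc1 (ENSMUSG00000042784, GRCm38 chromosome 3, 89229057 to 89233381, plus strand), the transmembrane mucin of epithelial surfaces, had 0, 8 and 15 reads in the Emcn-/- libraries, against 5, 13 and 6 in the Emcn+/+ libraries. Summed over libraries, 23 reads in Emcn-/- and 24 in Emcn+/+ gave a depth-adjusted ratio of 0.923 (95% exact interval 0.498 to 1.71, counting error only). The 0 reads of Emcn-/- replicate 1 allow up to 2.92 normalised reads. The direction of Muc1 rested on single libraries: its fitted log2 fold change was -0.71 ± 0.86 (SE) with no filter on low values, 0.47 without Emcn-/- replicate 1 and -1.14 without Emcn-/- replicate 2 (limma adjusted p = 0.831, 0.855 and 0.878). Cd164l2 (ENSMUSG00000028865, GRCm38 chromosome 4, 133212131 to 133224555, plus strand) had 1, 5 and 6 reads in the Emcn-/- libraries, against 3, 4 and 0 in the Emcn+/+ libraries, a ratio of 1.65 (0.599 to 4.95). Both intervals include 1, and for Cd164l2 a difference of several fold was not detectable at this depth. Cd164l2 shares 204 exonic bases with Gpr3 on the opposite strand. Gpr3, a receptor gene, had 21.4, 10.4 and 13.9 normalised reads in the Emcn-/- libraries, against 32.15, 29.7 and 8.74 in the Emcn+/+ libraries. These ranges overlapped. Since the protocol text covers strand-marked and unmarked libraries alike, reads of such pairs cannot be told apart. Of 10 surface epithelium markers 7 were found and 3 tested, with 0 called and levels that ran from near 0 to above that of Cd34. Krt18, a keratin gene of simple epithelia that the retinal pigment epithelium can also express, had 1588, 1879 and 1598 normalised reads in the Emcn-/- libraries, against 1101, 1428 and 1552 in the Emcn+/+ libraries. Its log2 fold change was 0.32 ± 0.12 (SE, limma adjusted p = 0.561). Krt8, its usual keratin partner, had 76.9, 105.8 and 110.9 in the Emcn-/- libraries, against 59.1, 36.1 and 47.0 in the Emcn+/+ libraries (1.04 ± 0.23, limma adjusted p = 0.400). Neither keratin overlapped between the genotypes, as was so for 14.4% of all genes tested, while the third tested gene, Cdh1, overlapped with an estimate of -0.54 ± 0.43. The part of these epithelial genes in the Muc1 values was not tested.

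The start regions of the genes differed in base composition. RefSeq windows of 300 bases (250 before and 50 after the start, GRCm38.p6) were matched for 6 of the 7 genes. The windows of Emcn and Cd34, which had 2 and 7 CpG pairs, are shown beside those of Podxl2 and Cd164, which had 39 and 36, to show how far the composition differs within the family. The median of all 32851 windows was 7. Capitals mark CCGGAA (a longer form of the ETS factor site), ACGTG (the core of hypoxia response elements) and GGGCGG (the GC box) on either strand. The Emcn window is chr3:137340828-137341127 (plus strand), Cd34 chr1:194938571-194938870 (plus), Podxl2 chr6:88874997-88875296 (minus) and Cd164 chr10:41519250-41519549 (plus).
Emcn: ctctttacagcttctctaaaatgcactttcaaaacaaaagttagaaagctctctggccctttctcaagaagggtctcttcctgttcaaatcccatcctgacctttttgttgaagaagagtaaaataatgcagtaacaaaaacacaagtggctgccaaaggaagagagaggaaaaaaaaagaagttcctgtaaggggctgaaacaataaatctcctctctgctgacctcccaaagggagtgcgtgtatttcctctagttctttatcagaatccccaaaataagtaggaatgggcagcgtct
Cd34: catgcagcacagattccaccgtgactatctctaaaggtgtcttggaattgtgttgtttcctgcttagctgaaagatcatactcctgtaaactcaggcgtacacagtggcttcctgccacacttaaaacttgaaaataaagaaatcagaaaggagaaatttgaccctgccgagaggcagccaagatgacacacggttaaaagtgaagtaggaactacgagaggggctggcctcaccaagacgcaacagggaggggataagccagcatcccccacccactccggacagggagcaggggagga
Podxl2: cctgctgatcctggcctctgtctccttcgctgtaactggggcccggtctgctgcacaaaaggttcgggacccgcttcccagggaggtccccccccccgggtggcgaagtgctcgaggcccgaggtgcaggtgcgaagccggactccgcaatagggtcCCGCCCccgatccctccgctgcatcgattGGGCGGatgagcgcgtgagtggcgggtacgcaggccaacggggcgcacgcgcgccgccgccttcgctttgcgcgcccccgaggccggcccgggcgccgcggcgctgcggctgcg
Cd164: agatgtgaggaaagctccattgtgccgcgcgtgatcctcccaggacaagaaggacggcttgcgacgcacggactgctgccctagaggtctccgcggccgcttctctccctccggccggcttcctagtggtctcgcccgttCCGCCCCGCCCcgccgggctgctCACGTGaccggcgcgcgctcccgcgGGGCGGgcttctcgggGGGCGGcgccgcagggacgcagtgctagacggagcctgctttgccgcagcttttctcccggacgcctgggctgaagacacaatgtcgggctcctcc

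None of the 3 motifs as spelled here occurred in the Emcn and Cd34 windows. The shorter ETS core GGAA was not searched for, and its letters do occur in both of these windows. The Podxl2 window held 2 GC boxes, and the Cd164 window held 4, of which a pair overlaps by 1 base, together with CACGTG, a palindrome that reads as ACGTG on both strands and so counts as 2 overlapping matches. Of all windows, 35.7% held the GC box letters, 19.6% ACGTG and 14.9% CCGGAA. These are matches of letters and not measured binding sites.

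Proteins that bind these sialomucins gave no call either. Of 12 partner genes, 9 were tested, 5 with positive and 4 with negative estimates, a median log2 fold change of 0.00 against 0.01 for all genes, and 0 called. Slc9a3r1, the scaffold protein NHERF1 that binds the podocalyxin tail, had 436, 428 and 502 normalised reads in the Emcn-/- libraries, against 362, 300.3 and 383 in the Emcn+/+ libraries. The genotypes did not overlap for Slc9a3r1, as for 14.4% of all genes tested. Its log2 fold change was 0.39 ± 0.11 (SE, limma adjusted p = 0.473). Ezr, which encodes ezrin, a linker between such scaffolds and actin, had 0.37 ± 0.20 (adjusted p = 0.658), while Ctnnb1, the beta-catenin gene and the partner with the most reads, had 0.02 ± 0.05. Genes of the retinal pigment epithelium had positive estimates in 9 of 9 tested, beside 8672 of all 16681 genes, with a median of 0.92 and 0 called. Their summed level was 8815 to 12315 normalised reads in Emcn-/- against 3730 to 7835 in Emcn+/+. Averaged over the tested genes as log2 values, each minus its own mean over the 6 libraries, the genotypes overlapped. That average was 0.05 in Emcn-/- replicate 1 and 0.13 in Emcn+/+ replicate 1. The part of these pigment epithelium genes in the Slc9a3r1 and Ezr values was not tested. Selp and Sele, the genes of P-selectin and E-selectin, whose products bind sialomucin sugars, did not exceed 5.46 normalised reads in any library.

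Other mucin-type surface proteins had estimates on both sides of 0. Of 18 listed genes 16 were found and 8 tested, 4 with positive and 4 with negative estimates, with a median log2 fold change of 0.01, the same as for all genes, and 0 called. That list median was -0.19 without Emcn-/- replicate 3 and 0.17 without Emcn+/+ replicate 3. Pdpn, the podoplanin gene and the one with the most reads, averaged 1165 ± 165 normalised reads over Emcn-/- libraries and 1048 ± 299.8 over Emcn+/+ libraries (SD, n = 3 each). Parm1, a mucin-like protein gene, had 467, 460 and 450.1 normalised reads in the Emcn-/- libraries, against 394, 305 and 382 in the Emcn+/+ libraries (log2 fold change 0.36 ± 0.11, limma adjusted p = 0.479). Selplg, the leukocyte ligand of P-selectin, had 55.5, 77.8 and 61.0 in the Emcn-/- libraries, against 79.9, 84.3 and 83.0 in the Emcn+/+ libraries (-0.36 ± 0.18, limma adjusted p = 0.645). The genotypes did not overlap for Parm1 and Selplg, as for 14.4% of all genes tested.

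Genes whose course over the 6 libraries was most like that of each sialomucin were taken as those with the smallest root mean square difference of centred log2 values, among 11020 genes. For Cd34 they were F11r, a junction adhesion molecule gene (0.06), and Msrb3 (0.07), where the spread of Cd34 around its own mean was 0.26. For Podxl they were Akt1s1 (0.019) and Ncapd2 (0.020), against a spread of 0.12. For Cd164 they were Mmadhc (0.013) and Tspan3 (0.014), against a spread of 0.07. Wwox was among those of Podxl2 (0.017), against a spread of 0.08. With 6 libraries and so many candidates, close matches are a description of these samples.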

How the data were processed

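Retina was measured in 3 Emcn-/- and 3 Emcn+/+ samples by RNA-seq. Per the labels' protocols, 1.3 µg of RNA per library was enriched for poly-A transcripts, broken up and primed with random hexamers. The build was GRCm38, per the submitters' processing notes. The aligner, the counter and the annotation were not given in the sources used here. Values deposited by the authors are a read signal per gene, not adjusted for length. In each library 100% of the values came out whole after division by the smallest one (within 0.001 read), so the quotients were used as recovered reads. Since the values are normalised, log2(value + 1) was fitted with limma 3.58.1 (R 4.3.3; trend on) as the main test, on genotype alone. P-values were Benjamini-Hochberg adjusted over the 16681 genes that passed edgeR's expression filter (minimum count 10), and calls were made under 0.05. Fold changes on this scale understate those of low genes. The count tests of edgeR 4.0.16 (TMM scaling) and DESeq2 1.42.0 on the recovered reads were alternatives and called 1 and 82 genes. Floors are 3 reads, 2.77 to 3.28 normalised reads, and cover counting error only, as do the exact intervals. Lengths and positions came from GENCODE M21 (27390 of 28627 IDs matched) and promoter windows from RefSeq (GRCm38.p6). The genes and lists were chosen with earlier results of these data known. The genes named are Emcn and its 6 relatives and, by list, those called, with the highest mean or with the 2 smallest p, plus the 2 nearest patterns of each tested relative, except some that are not reported here; Pecam1, Cdh5, Cdh1, Gpr3, Cd24a, Gnat1, Xist, Ddx3y, Selp and Sele were added after their values were seen. The scripts were tested on simulated data. All 6 value columns were used.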

Additional observations from a re-analysis of the deposited data

How the results depend on the processing

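No paired analysis was possible because nothing in the sample labels used here pairs the samples by litter. The replicate numbers are not from the labels and follow the order of the samples. None of the tested relatives was called under any alternative: other scalings, filters, pseudocounts (0.5 and 5), no intensity trend, a block for the title-number series, edgeR, DESeq2, each library left out, and, chosen after seeing the data, the 140s libraries alone. Podxl2 and Cd164 kept positive estimates throughout. Podxl, at -0.00033 with all libraries, was positive with TMM (0.00056) or upper-quartile scaling (0.0044) and in the 140s libraries alone (0.035), and ran from -0.092 to 0.092 with 1 library left out, since an estimate this near 0 has no stable sign. Cd34 ran from -0.038 to 0.30 with 1 library left out, its sign resting on single libraries. Emcn kept an estimate of -4.83 without the intensity trend, where its call was lost (limma adjusted p = 0.149), and -5.23 to -4.50 with 1 library left out. The count of all genes called was 1 with limma (1358 at an unadjusted p under 0.05) and 82 with DESeq2. It was 0 with the stricter filter (1141 unadjusted), a mean of at least 50 normalised reads, which leaves Emcn out. Without the trend it was 0 (1236 unadjusted), and in the 140s libraries alone it was 36. With 1 library left out it ran from 0 to 147, the 147 being without Emcn+/+ replicate 3. The causes of these changes were not tested. None of the relatives tested in each fit was among the genes called. Cd164l2 was fitted only with no filter, and Muc1 in 5 fits. With 1 library left out, the list median of other mucin-type proteins ran from -0.19 to 0.17 and that of partners from -0.015 to 0.20, while that of endothelial genes, -0.092 with all libraries, ran from -0.21 to 0.13. Emcn had no adjusted p with DESeq2, which sets weakly expressed genes aside. With 7 to 24 reads per genotype, depth limits what can be said of Muc1 and Cd164l2.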

Other observations

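Cd24a, the gene of a small sialylated lipid-anchored protein of developing neurons and blood cells, showed 1 library apart from the others. It had 237, 178 and 219 normalised reads in the Emcn-/- libraries, against 987, 212 and 174 in the Emcn+/+ libraries. The high value was that of Emcn+/+ replicate 1 alone, and the gene did not pass the test (log2 fold change -0.66 ± 0.54 SE, limma adjusted p = 0.765).

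Podxl2 and Cd34 each overlap an antisense transcript. Gm15612, which shares 1099 exonic bases with Podxl2, averaged 27.8 normalised reads in Emcn-/- and 27.0 in Emcn+/+. Gm16897, which shares 148 exonic bases with Cd34, averaged 13.8 in Emcn-/- and 12.04 in Emcn+/+. Both counts were far below those of the genes they overlap. Since reads of such pairs cannot be told apart here, these counts do not give the level of the antisense transcripts.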
